A study of Homo sapiens with 8 samples.

Results

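Cultures labelled HepG2 that received interferon gamma (IFNg) were set directly against cultures that received hepatocyte growth factor (HGF), for expression rank and for N6-methyladenosine (m6A) in RNA. All 25918 gene models of the deposited table entered, with 4 of the series' 8 libraries: 1 m6A immunoprecipitation (IP) and 1 input library for each agent. IFNg was given at 200 ng/ml and HGF/SF (scatter factor, another name of HGF) at 10 ng/ml, each overnight, in DMEM with serum and antibiotics. HepG2 is a human line that the labels describe as hepatocarcinoma. After polyA selection, RNA pieces of about 100 nt were pulled down by an m6A antibody, and cDNA made with random primers was sequenced. The UV and heat shock cultures of the series were left out of the contrast, and no untreated culture was analysed here. With 1 library per group, every difference below describes these libraries, without a replicate check.

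IFNg binds the IFNGR1 and IFNGR2 receptor chains and acts through the kinases JAK1 and JAK2, which leads to induction of IRF1 and a wide set of antiviral and antigen presentation genes. HGF binds the receptor tyrosine kinase MET, which signals through the adaptor GAB1, the RAS-ERK cascade and AKT. The m6A mark is written mainly by a METTL3 complex at GGAC-type sequences, lies mostly in long exons and near stop codons, and is bound by YTH-domain readers. In m6A mapping, a peak is a stretch of transcript enriched in the IP over the input.

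Expression is given as a percentile from 0 to 100 among all gene models, made from the deposited rank. It holds no amounts, so no fold change is given, and differences shrink near the top of the scale. The sources used here do not say whether the rank came from the IP or the input library, and library depth is unknown. The lowest tied percentile, the floor, was 18.4 after IFNg (4781 gene models) and 20.4 after HGF (5292), and values under 20.4 were raised to it before differences were taken. In bulk RNA, fewer cells of a type and less RNA per cell cannot be told apart. Gene coordinates are those of the table, whose genome build the sources used here do not name.

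The hepatocyte identity of the label was not borne out by its defining markers. None of 10 hepatocyte markers reached percentile 60 after either agent. The serum protein genes ALB and AFP stood at 22.3 and 22.4 after IFNg and at 24.9 and 20.4 after HGF. HNF4A, a hepatocyte transcription factor, had the highest percentile of the 10 after IFNg, 56.9, and stood at 33.3 after HGF, where TTR, a serum transport protein, was highest at 43.0. Of 62 measured hepatocyte function genes, 15 reached percentile 60 after either agent, among them the urea cycle enzyme CPS1, at 99.4 and 99.6. The intermediate filament genes VIM (99.8 and 99.7) and KRT7 (99.7 and 99.2) stood near the top. Of the blood-cell markers, 1 of 10 reached percentile 60, the lysosomal gene CD68, while PTPRC stood at 35.1 and 26.5. None of 7 endothelial markers did. Of the 8 fibroblast and stellate markers 6 did, but COL1A2 lay at 18.5 and 20.6, and of the 7 cholangiocyte markers 5 did, but EPCAM lay at the floor in both. Of the marker genes at percentile 60 or more after either agent, 1 differed by 10 points or more, KRT19, at 68.1 after IFNg and 79.2 after HGF. The part of these marker levels in the results below was not tested.

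Most gene models ranked alike after both agents. Of the 11251 gene models at percentile 60 or more in either, 63.1% lay within 5 points, with a median difference of -0.216 points. A total of 886 (7.87%) ranked 10 points or more higher after IFNg and 811 (7.21%) ranked that much lower. Higher calls made up 52.2% of the calls at 10 points and 62.6% at 20 points, where 309 were higher and 185 lower. They made up 48.4% at 5 points, and 49.8% (793 higher and 800 lower) when gene models above both floors were ranked again, so the small surplus at 10 points depended on the setting. Past 30 points, 171 were higher and 91 lower. The difference moved with base composition: Spearman's rho with GC content was 0.242 over 10135 gene models, with median GC contents of 52.2% for those higher after IFNg and 44.2% for those lower. The part of GC content in single genes was not tested. After a correction for it, 770 gene models were higher and 492 lower by the same line.

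MHC class II presentation genes and guanylate-binding proteins (GBPs) had the highest list medians toward IFNg, and gave 2 each of the 10 gene models with the widest gaps. Of 19 class II genes measured, 14 reached percentile 60. Of these, 9 ranked higher after IFNg and 0 lower, with a median of 31.5 points over the 14. All 14 reached the line after IFNg and 5 after HGF, which favours calls toward IFNg. Over all 19 the median was 31.3 points. CIITA, the coactivator on which class II transcription depends, stood at 86.8 after IFNg and 44.2 after HGF. CD74, the invariant chain that guards the peptide groove (chromosome 5, 149761393 to 149772525, minus strand), stood at 97.2 and 28.5, the widest gap of all gene models with a recognised symbol. HLA-DRA, the class II alpha chain, stood at 88.2 and 30.9 (chromosome 6, 32515625 to 32520802, plus strand). The peptide loader HLA-DMA (82.2 and 58.0) and the invariant chain protease CTSS (65.5 and 34.2) lay in the same direction. RFX5, RFXAP and RFXANK, the factors that recruit CIITA to DNA, differed by 1.42, 1.12 and 0.0502 points. HLA-DRB1, HLA-DRB5 and HLA-DPA1 stayed under percentile 60 with gaps of 15.1, 38.6 and 39.3 points, and are not among the 9. The HLA genes share near-identical sequence, so how reads were divided among them is uncertain.

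All 5 GBPs that reached percentile 60 ranked higher after IFNg, by a median of 49.2 points. They reached it after IFNg and 0 did after HGF, so the filter itself fixed their direction. Over all 8 measured genes of the list the median was 40.9 points. GBPs are GTPases that attack vacuoles that hold pathogens. GBP1 stood at 96.0 after IFNg and 28.3 after HGF, and GBP5 at 82.8 and at the floor. GBP2 (95.03 and 58.9), GBP3 (88.8 and 39.6) and GBP4 (75.5 and 29.8) lay between. GBP6 stood at 24.9 and 23.4 and GBP7 at 18.4 and 31.3, both too low to be counted. Reads of the GBP cluster can be shared between its members.

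In the IFNg signalling and core response list, 24 of 48 measured genes ranked higher after IFNg and 2 lower, with a median of 17.7 points over the 39 that reached percentile 60 and 15.1 over all 48. The receptor chains differed little: IFNGR1 stood at 62.9 and 62.7, and IFNGR2 at 73.3 and 70.6. Downstream, the transcription factor IRF1 stood at 98.8 after IFNg and 62.2 after HGF, and JAK2 at 63.9 and 46.2. The widest gaps belonged to UBD, a ubiquitin-like modifier (75.2 against the floor), IL15RA, the interleukin 15 receptor chain (79.1 and 27.6), CASP1, the inflammasome protease (89.9 and 41.6), and the apolipoprotein L genes APOL3 (81.4 and 33.7) and APOL6 (91.5 and 45.5). IDO1, which degrades tryptophan, stood at 99.0 and 55.6. Of the negative regulators, SOCS1 stood at 58.4 and 31.4, under the line of 60, and SOCS3 at 94.9 and 87.1. The 2 lower genes were VAMP5, a vesicle fusion protein (18.4 against 64.5), and PLA2G4A, a phospholipase that releases arachidonic acid (70.3 against 88.2).

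Antiviral genes known from type I interferon moved the same way. Of 57 measured, 51 reached percentile 60, 36 ranked higher after IFNg and 0 lower, with a median of 21.1 points. All 51 reached percentile 60 after IFNg and 31 after HGF, and the median over all 57 was 19.8 points. UBE2L6, the enzyme that conjugates ISG15, stood at 97.4 after IFNg and 30.8 after HGF (chromosome 11, 57075705 to 57091756, minus strand). IFI27, a mitochondrial interferon-induced protein, stood at 86.1 and at the floor (chromosome 14, 93646832 to 93652786, plus strand). TRIM22 (77.9 and 22.1), XAF1 (86.6 and 36.6) and HERC6 (68.6 and 21.1) followed. The membrane restriction factors were already near the top after HGF: BST2 stood at 99.5 and 98.8, IFITM3 at 99.8 and 99.5 and IFITM2 at 98.4 and 98.0, and the IFITM genes are near-identical copies. MX1, a marker of type I interferon action, stayed low, at 34.2 and 29.5.

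Class I presentation genes were near the top after both agents, and part of them ranked higher after IFNg. Of 20 genes measured, 6 ranked higher after IFNg and 0 lower. The median was 2.28 points over the 19 that reached percentile 60 and 3.15 over all 20. B2M, the class I light chain, stood at 99.8 and 99.3. The peptide transporter genes TAP1 (99.3 and 71.8) and TAP2 (97.4 and 75.8) and NLRC5, the class I coactivator (91.7 and 67.1), lay well apart, and so did the nonclassical heavy chains HLA-F (83.1 and 53.2), HLA-E (99.3 and 84.8) and HLA-G (95.8 and 82.8). Among proteasome genes, the 3 inducible catalytic subunits ranked higher after IFNg, with PSMB8 at 99.3 and 72.2, PSMB9 at 97.7 and 55.6, and PSMB10 at 87.3 and 57.9. The PA28 cap genes PSME1 (98.9 and 92.3) and PSME2 (98.9 and 90.2) differed by less than 10 points, and POMP, a proteasome assembly factor, leaned to HGF (78.6 and 87.6).

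Chemokine and complement genes added to the IFNg side. Of 14 chemokine genes measured, 6 reached percentile 60 and 5 ranked higher after IFNg. These included CXCL11 (63.9 against the floor), CXCL10 (73.6 and 32.0) and CXCL2 (88.6 and 61.0). All 6 reached percentile 60 after IFNg and 2 after HGF, which favours calls toward IFNg. The median over all 14 was 11.8 points. Of 44 complement and acute phase genes measured, 12 reached percentile 60, of which 7 ranked higher and 0 lower. All 12 did so after IFNg and 8 after HGF, and over all 44 the median was 1.89 points. C4B stood at 83.4 and 20.6, but its models share reads with the near-identical other C4 gene. SERPING1, the C1 inhibitor (94.3 and 48.0), and the C1 proteases C1S (93.8 and 65.9) and C1R (99.2 and 73.5) had wide gaps too. C3 itself stood at 97.8 and 92.2. The acute phase genes SAA1, HP and ORM1 lay at the floor after both agents.

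**Figure D1:**
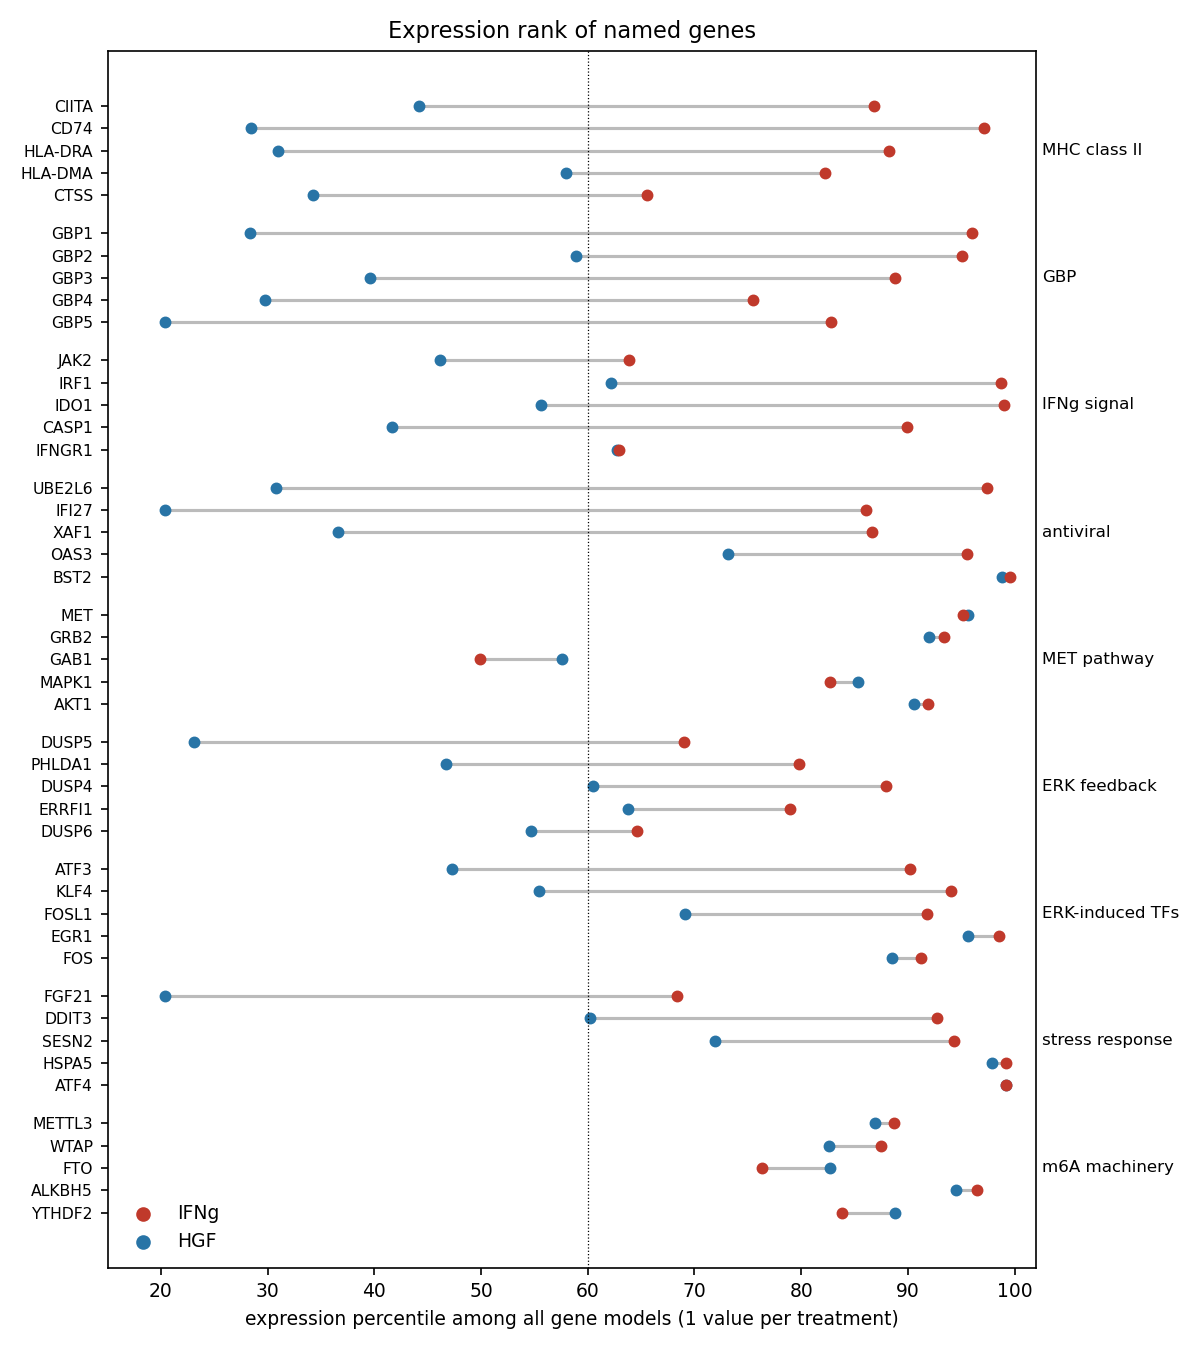
Expression percentile of 45 named genes after IFNg (red) and HGF (blue), 1 value per treatment, grouped by role; the dotted line marks percentile 60. MHC class II and GBP genes are far apart (CD74 at 97.2 and 28.5), while MET and the m6A machinery nearly coincide (MET at 95.2 and 95.7).

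The promoters of 3 genes far higher after IFNg are shown, chosen after the search because each holds a match to a motif known from interferon signalling: TTCNNNGAA, the gamma-activated site, or the interferon-stimulated response element, 2 copies of GAAA with 2 bases between, that IRF proteins bind. Both strands were searched over 250 bases before and 50 after the start site in RefSeq promoters of GRCh38.p14, and the motifs can overlap. The first was found in 7.88% and the second in 3.65% of 27305 promoters. The excerpts run from position -170 to -71 relative to the start site, 5′ to 3′ on the gene's strand, with matches in capitals. GBP1 lies at chr1:89065279-89065378 (minus strand), IRF1 at chr5:132490844-132490943 (minus strand) and IFI27 at chr14:94110566-94110665 (plus strand).
GBP1: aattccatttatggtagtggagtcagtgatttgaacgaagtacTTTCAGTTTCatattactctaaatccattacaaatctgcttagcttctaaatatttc
IRF1: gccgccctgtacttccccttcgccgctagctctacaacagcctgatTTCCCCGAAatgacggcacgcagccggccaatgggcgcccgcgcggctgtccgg
IFI27: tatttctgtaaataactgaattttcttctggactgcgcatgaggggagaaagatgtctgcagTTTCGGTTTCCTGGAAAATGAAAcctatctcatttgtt
The match in GBP1 is to the response element, that in IRF1 to the gamma-activated site, and IFI27 holds both, run together. CD74, UBE2L6 and UBD had no match to these letters in the window. A match is a description of the letters, not evidence of binding in these cells.

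The MET receptor and the kinases below it ranked alike after both agents. MET stood at 95.2 after IFNg and 95.7 after HGF. Of 29 receptor, activator and adaptor genes measured, 22 reached percentile 60. Of these, 0 ranked 10 points higher after IFNg and 1 lower: ST14, the matriptase that activates HGF, at 30.5 and 60.1. GAB1 (49.9 and 57.5), GRB2 (93.4 and 92.0) and SHC1 (94.3 and 93.7), the adaptors at the receptor, differed by less than 10 points. Of 28 RAS-ERK and AKT genes, 0 passed the line in either direction. Beside backgrounds of 7.87% and 7.21%, few calls would be looked for in such a list, so the 0 does not set it apart. HGF's own transcript stood at 50.6 after IFNg and 22.4 after HGF, under percentile 60.

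Genes that the ERK cascade commonly induces leaned to IFNg rather than to HGF. Of 20 ERK feedback inhibitors, 6 ranked higher after IFNg and 1 lower, beside backgrounds of 7.87% and 7.21%. The median was 6.81 points over the 15 at percentile 60 or more and 6.99 over all 20. After IFNg all 15 reached percentile 60, against 10 after HGF, which favours calls toward IFNg. DUSP5, a nuclear ERK phosphatase (chromosome 10, 112247615 to 112261292, plus strand), stood at 69.0 after IFNg and 23.1 after HGF. PHLDA1 (79.8 and 46.7), the phosphatases DUSP4 (88.0 and 60.5) and DUSP8 (70.0 and 42.7), and ERRFI1, an inhibitor of EGFR (79.0 and 63.8), lay in the same direction. DUSP5, PHLDA1 and DUSP8 reached percentile 60 after IFNg only, so the filter itself fixed their direction. DUSP6, an ERK-selective phosphatase, stood at 64.6 and 54.7. The 1 lower gene was RASA1, a RAS inactivator (71.0 and 81.9).

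Of 37 ERK-induced transcription factors, 10 ranked higher after IFNg and 0 lower, beside the same backgrounds. The median was 3.77 points, both over the 31 at percentile 60 or more and over all 37. That line was reached by 30 after IFNg and 27 after HGF. ATF3, KLF4 and NR4A3 reached it after IFNg only, so the filter itself fixed their direction. ATF3 stood at 90.2 and 47.3 (chromosome 1, 210805320 to 210860739, plus strand), KLF4 at 94.0 and 55.5 and the AP-1 gene FOSL1 at 91.8 and 69.1. NR4A3 (74.2 and 53.4) and KLF6 (92.2 and 76.9) followed. The best known immediate early genes were high after both: EGR1 stood at 98.6 and 95.6, FOS at 91.3 and 88.5 and MYC at 99.5 and 99.3. Of 25 growth factor genes, 7 ranked higher after IFNg and 0 lower. FGF21 stood at 68.4 against the floor, INHBE at 85.2 and 57.5, and the EGFR ligand EREG at 79.0 and 59.9. In that list 13 genes reached percentile 60 after IFNg and 5 after HGF, and the median over all 25 was 5.66 points. Among 30 genes of the plasminogen system, matrix proteases and laminins, 0 ranked higher and 1 lower, the laminin chain LAMA3 (55.3 and 67.0).

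Stress genes leaned to IFNg as well. Of 31 genes of the integrated stress and unfolded protein responses, 10 ranked higher after IFNg and 0 lower, with a median of 3.05 points. After IFNg all 31 reached percentile 60, against 27 after HGF, which favours calls toward IFNg. FGF21, counted also among the growth factors, led, followed by DDIT3, the stress factor CHOP (92.7 and 60.2), GDF15, a secreted stress signal (93.0 and 66.0), SESN2, an inhibitor of mTORC1 (94.3 and 71.9), and STC2 (97.3 and 78.2). ATF4, whose protein drives several of them, stood at 99.2 in both, and the chaperone HSPA5 at 99.2 and 97.9.

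Proliferation, sterol and housekeeping genes showed shares below the background of all gene models, but many stood near the top of the scale. Median percentiles were 92.0 after IFNg and 92.3 after HGF for the cell cycle list. They were 97.4 and 97.2 for the housekeeping list. The scale ends at 100, so a gene at these medians could not rank 10 points higher after the other agent. The part of this ceiling and of list size in the low shares was not tested. Of 55 cell cycle and replication genes, 2 ranked higher after IFNg, CCND1 (93.2 and 80.1) and E2F8 (74.1 and 62.3), and 0 lower. Of 33 cholesterol and lipid synthesis genes, 0 ranked higher and 1 lower, ELOVL6 (57.9 and 68.8). Of 20 housekeeping genes, 0 passed in either direction, and the differences ran from -4.26 to 4.89 points. Among 39 hypoxia and glycolysis genes, 35 reached percentile 60, of which 2 ranked higher after IFNg and 3 lower. Beside backgrounds of 7.87% and 7.21%, these few calls do not set the list apart. ADM (81.2 and 63.3) and EPAS1 (92.3 and 80.9) were higher. CA9, the hypoxic carbonic anhydrase (72.3 and 93.0), EGLN3 (69.2 and 80.6) and BNIP3L (72.2 and 83.5) were lower. Of the 15 hepatocyte function genes at percentile 60 or more, 1 ranked higher, PCK2 (92.4 and 78.2), and 3 lower, HPD, NR1I3 and SLCO1B3, which is not below the background.

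**Figure D2:**
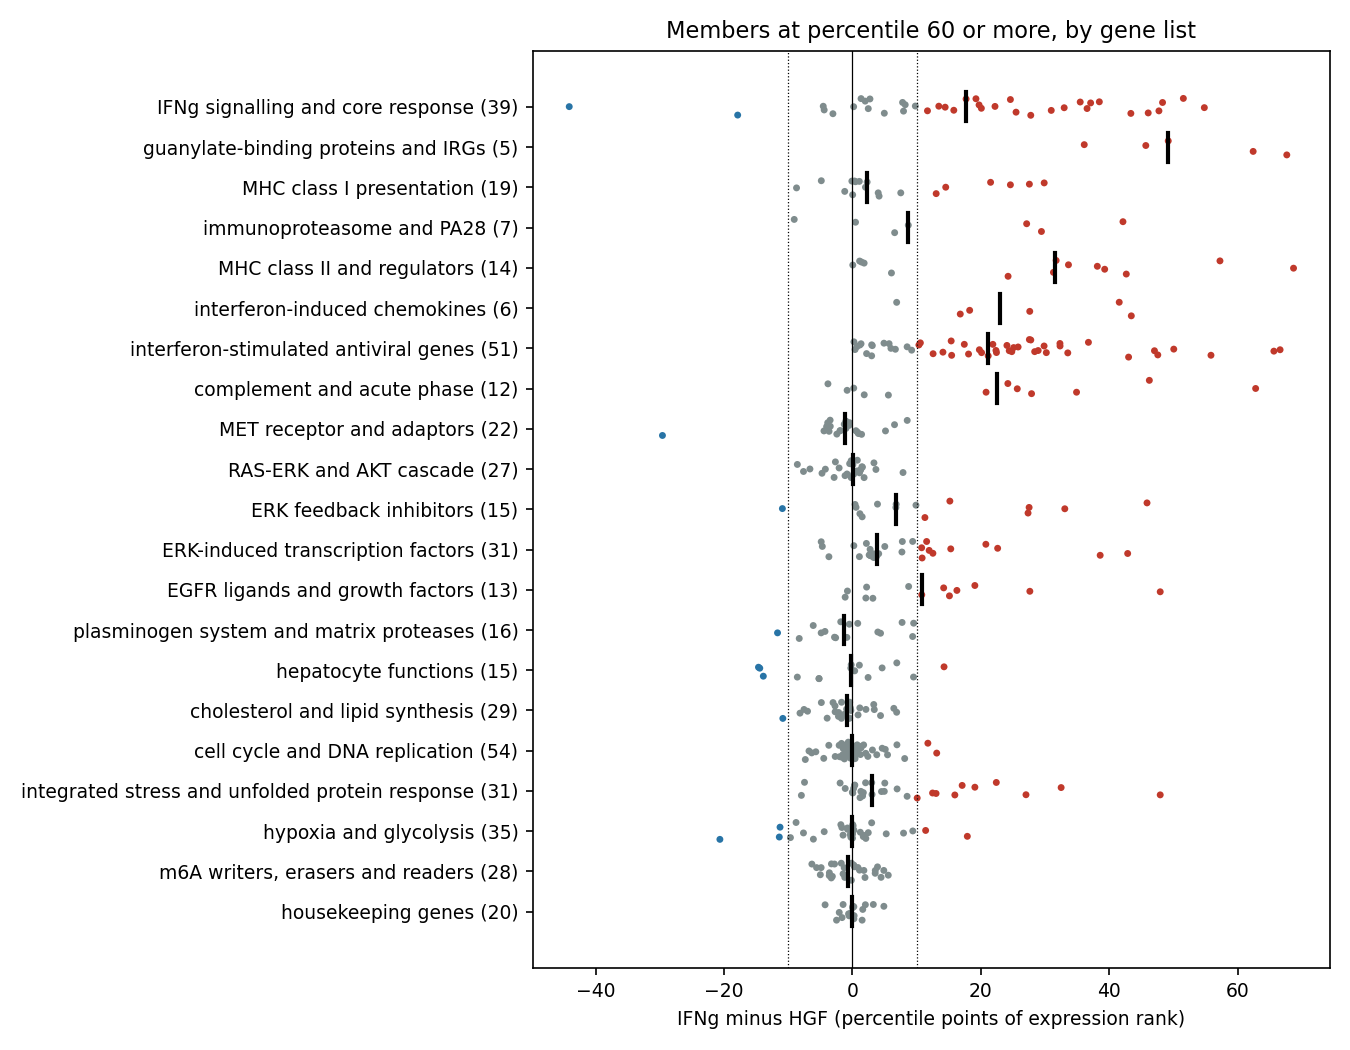
Difference in expression percentile, IFNg minus HGF, for each gene at percentile 60 or more after either agent, by list (number of genes in parentheses); black bars are medians, and red and blue points lie past 10 points. The interferon lists sit to the right (GBP median 49.2, over 5 genes that passed percentile 60 after IFNg only). The MET list has a median of -1.15, and the m6A machinery stays between the dotted lines.

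The m6A machinery ranked alike. Of 28 measured writers, erasers and readers, 0 passed 10 points in either direction, and the differences ran from -6.32 to 5.58. Beside backgrounds of 7.87% and 7.21%, a list this short would hold few calls, so the 0 does not set it apart. Median percentiles were 85.5 after IFNg and 87.1 after HGF, a part of the scale where differences shrink. The part of this ceiling and of list size in the lack of calls was not tested. The catalytic subunit METTL3 stood at 88.7 after IFNg and 86.9 after HGF. Its partners were WTAP (87.5 and 82.6), KIAA1429 (79.6 and 83.2), RBM15 (91.6 and 94.4), RBM15B (90.6 and 90.4), ZC3H13 (85.1 and 88.2) and CBLL1 (86.0 and 81.5). The erasers lay on opposite sides, FTO at 76.3 and 82.7 and ALKBH5 at 96.5 and 94.5. The readers stood at 91.3 and 87.4 for YTHDF1, 83.8 and 88.8 for YTHDF2, 91.0 and 92.4 for YTHDF3, 82.3 and 78.8 for YTHDC1, and 72.1 and 75.4 for YTHDC2. IGF2BP1 (90.02 and 86.5), IGF2BP2 (79.6 and 74.1) and IGF2BP3 (82.0 and 83.7), which also bind methylated RNA, differed as little.

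The gene models at the bottom of the contrast formed no list fixed here. Those with recognised symbols were CO9, as the table names a noncoding model (18.4 after IFNg and 75.9 after HGF), ERCC6L, a mitotic helicase (18.8 and 68.0), MPZL3 (32.9 and 78.8), VAMP5, ODF1, a sperm tail protein (18.4 and 63.7), FAM27E3, the transporter SLC38A6 (22.4 and 65.2), the olfactory receptor OR2AK2 (18.4 and 61.3), the ribonuclease RNASE4 (18.4 and 61.2) and ABHD7. Of these 10, 6 lay at the floor after IFNg and none stood above 78.8 after HGF. Noncoding models were called more often than the background in both directions: 176 of 942 ranked higher after IFNg and 187 lower. Among 165 small nucleolar and Cajal body RNA models, 53 ranked higher and 34 lower. These short RNAs lie mostly inside introns of host genes.

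The peak lists differed in length. The table held 5280 peaks in 3556 gene models after IFNg and 9111 in 5508 after HGF, and 3146 gene models had peaks after both, 88.5% of the IFNg models and 57.1% of the HGF models. The authors' score per peak started at 2 in both lists, with medians of 3.01 after IFNg and 3.33 after HGF. AHNAK, a giant scaffold protein, had 13 peaks after each agent, and ZFHX3 had 11 after each. MUC16 had 9 after IFNg and 15 after HGF, FAT1 9 and 12, and MLL2 8 and 13. How far depth sets these numbers was not tested.

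Gene models that ranked higher after IFNg did not mostly carry a peak. Of the 886, 194 had peaks after both agents, 41 (4.63%) after IFNg alone, 77 (8.69%) after HGF alone and 574 none. HGF-alone models outnumbered IFNg-alone models here too, but their share lay below the 19.2% of the models under 10 points. Of the 811 that ranked lower, 51 had peaks after both, 9 after IFNg alone, 124 after HGF alone and 627 none. In the 9554 between, 29.2% had peaks after both, 3.59% after IFNg alone, 19.2% after HGF alone and 48.0% none.

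Although the HGF list was longer, several interferon lists held more peaks after IFNg. In the core response list, 24 peaks were listed after IFNg and 13 after HGF. CIITA had 3 IFNg peaks, 2 in coding sequence (scores 3.22 and 2.71) and 1 in the 3′ UTR (4.10), and none after HGF. IRF1 (3.27), IDO1 (3.03), UBD (4.34) and GBP5 (3.17) had 1 each around the stop codon, against none. GBP1 had 1 in the 3′ UTR (3.62). All these genes also ranked higher after IFNg, and a peak can be listed only where a transcript is covered.

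Of the 57 antiviral genes, 15 had peaks after both agents, and genes near the top such as BST2 and ISG15 had none after either. PARP14, an ADP-ribosyltransferase, had 6 peaks after IFNg and 4 after HGF, and all 4 HGF peaks lay within 100 nt of an IFNg peak, for example at 2467 and 2466 nt of the transcript. The ERK feedback list, with 15 IFNg and 10 HGF peaks, and the ERK-induced transcription factors, with 38 and 34, also held more after IFNg. In the antiviral list as a whole, 21 sites were shared, 20 were listed after IFNg alone and 11 after HGF alone. In the MET list, with 40 sites, 13 were shared, 7 were IFNg-alone and 20 HGF-alone. Over all gene models 36.4% of sites were shared, 13.7% were IFNg-alone and 49.98% HGF-alone. The MET list lay near these shares, so its HGF-alone sites do not set it apart. MET itself had 5 IFNg and 4 HGF peaks, and its strongest lay at 519 nt (score 4.56) and 520 nt (6.13), respectively. In the m6A machinery, 25 peaks were listed after IFNg and 35 after HGF, with METTL3 at 1 each, RBM15 at 1 and 5, ZC3H13 at 0 and 3, and YTHDF3 at 3 and 4.

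Most IFNg peaks had a counterpart after HGF, but not the reverse. Peaks were matched where the other list had 1 in the same gene model within 100 nt. This held for 72.6% of IFNg peaks (95% interval 71.4 to 73.8) and for 42.2% of HGF peaks (41.2 to 43.2). When positions in the other list were displaced by 400 nt, the shares were 10.3% and 5.73%. Intervals for shares are exact Clopper-Pearson and cover counting error only. With each list cut to equal numbers of its highest-scoring peaks, 55.8% of IFNg and 55.7% of HGF peaks were matched.

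Peaks with high scores were matched far more often. When peaks were divided by score into 5 equal classes, from the lowest to the highest, the matched share went from 50.6% to 91.3% for IFNg and from 18.7% to 74.8% for HGF. It also depended on the place in the transcript. Around the stop codon 80.3% of IFNg and 46.6% of HGF peaks were matched. At the transcript start 12.02% of 341 HGF peaks had an IFNg counterpart (8.77 to 16.0), and 12.8% of the 125 with a score of 3 or more. The 62 IFNg start peaks were matched at 64.5% (51.3 to 76.3). In gene models of equal high rank, 13.1% of 268 HGF start peaks were matched.

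**Figure D3:**
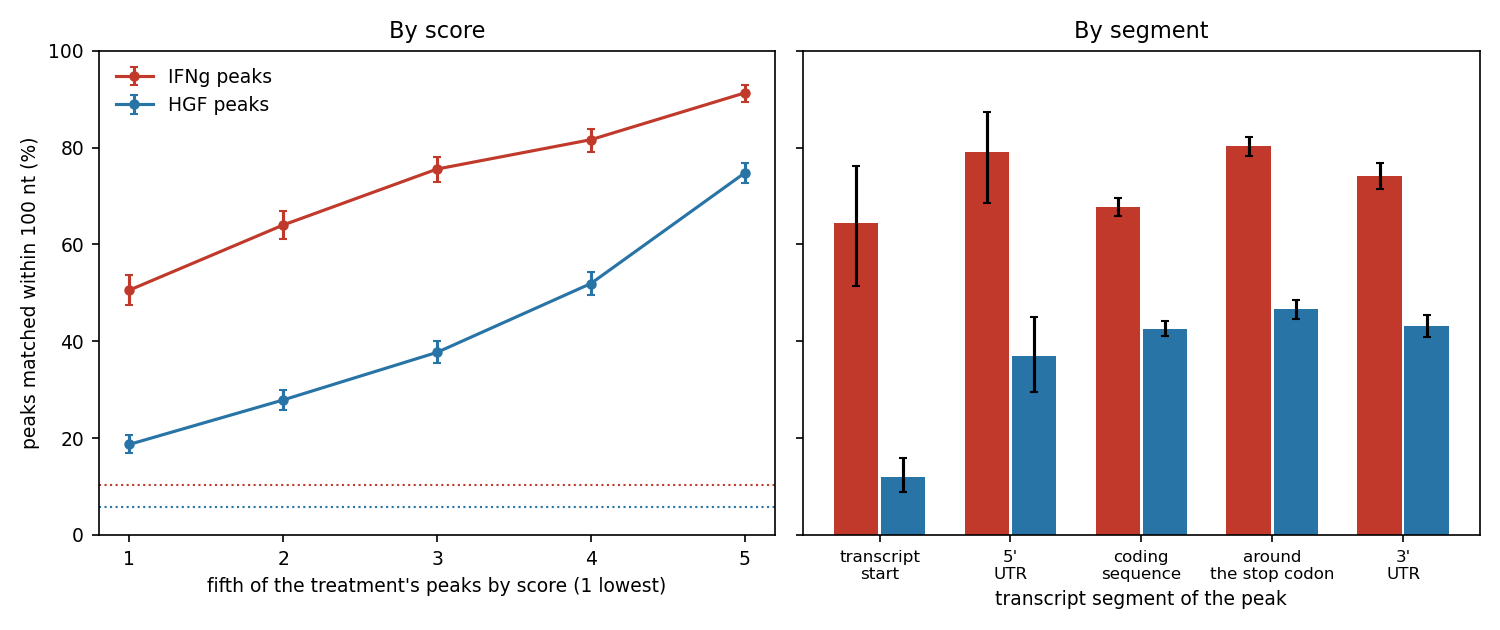
Share of IFNg (red) and HGF (blue) peaks with a peak of the other agent within 100 nt in the same gene model, by 5 equal classes of score (left) and by transcript segment (right); bars and whiskers show 95% exact intervals, and dotted lines the shares after displacement by 400 nt. Matching climbs with score, to 91.3% and 74.8%, and HGF peaks at the transcript start are matched least, at 12.02%.

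Peaks within 100 nt of each other were then joined into sites, of which 3821 held peaks of both agents, 1436 of IFNg alone and 5252 of HGF alone. To set expression aside, sites were compared in the 5575 gene models of equal high rank, those at percentile 75 or more after both agents and within 10 points. These held 2358 shared, 1029 IFNg-alone and 2681 HGF-alone sites. The order of the last 2 changed with the setting: with equal numbers of peaks, 1672 were IFNg-alone and 888 HGF-alone. Lack of a listed peak does not show lack of the mark.

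The 3 kinds of site lay in different places. Coding sequence held 58.1% of the IFNg-alone sites (55.0 to 61.2), 40.7% of the HGF-alone sites (38.9 to 42.6) and 41.5% of the shared sites (39.5 to 43.5). The region around the stop codon held 19.3%, 26.2% and 33.1%, respectively. The transcript start held 8.80% of HGF-alone sites (7.74 to 9.94), against 1.29% of IFNg-alone (0.688 to 2.20) and 1.501% of shared sites (1.05 to 2.08). The 3′ UTR shares, 20.1%, 21.9% and 22.4%, had overlapping intervals. These intervals describe sites of 1 library per agent and are no test between agents.

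**Figure D4:**
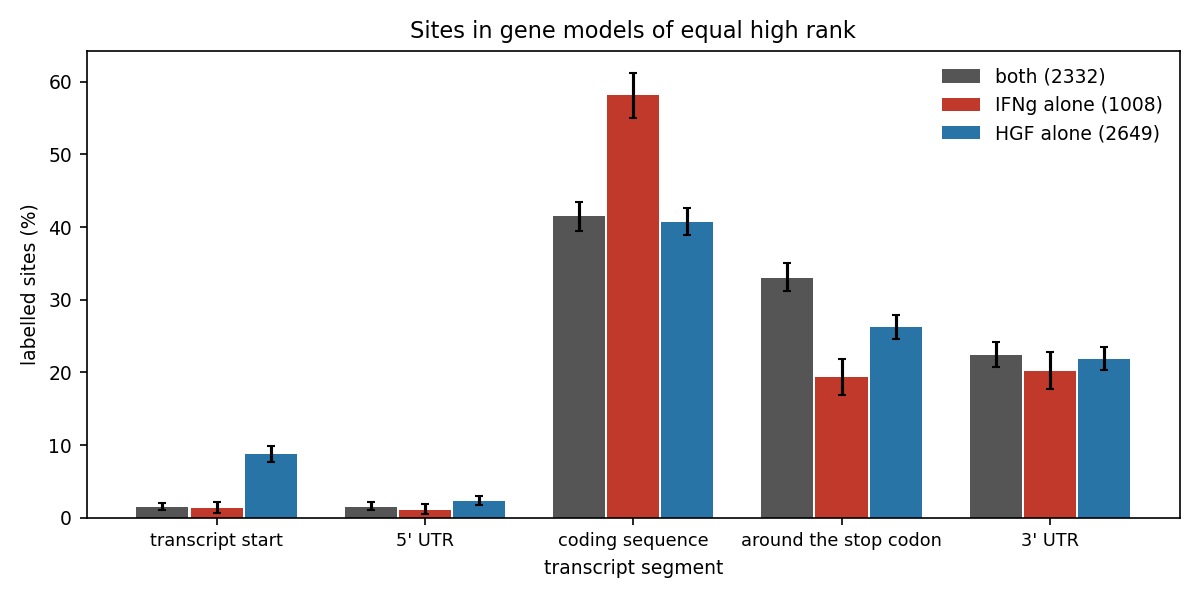
Share of labelled sites in each transcript segment, for shared (grey), IFNg-alone (red) and HGF-alone (blue) sites in gene models of equal high rank; whiskers are 95% exact intervals and the numbers of sites stand in the legend. IFNg-alone sites are highest in coding sequence (58.1%), and HGF-alone sites at the transcript start (8.80%).

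As a measure that the comparison did not use, the positions listed after UV and heat shock were set beside these sites. Of shared sites, 81.4% had a UV peak and 80.6% a heat shock peak within 100 nt. HGF-alone sites had 58.5% and 51.2%, and IFNg-alone sites 26.2% and 24.6%. In neither stress list were 67.2% of IFNg-alone sites (64.3 to 70.1) and 33.8% of HGF-alone sites (32.0 to 35.6). The UV and heat shock lists come from other libraries of the series.

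Peaks in short coding exons took a larger share of the IFNg list and were seldom matched in either list. Coding exons under 200 nt held 338 of 2471 IFNg coding peaks, 13.7% (12.4 to 15.1), against 219 of 3933 HGF coding peaks, 5.57% (4.87 to 6.33). Here 9.17% of the IFNg peaks were matched after HGF, 2.37% after UV and 2.37% after heat shock. In exons from 400 nt to under 1000 nt those shares were 83.3%, 77.7% and 73.3%. HGF peaks in exons under 200 nt were matched at 14.2% after IFNg, 15.1% after UV and 10.96% after heat shock. The short-exon IFNg peaks lay in 299 gene models with a median percentile of 90.8, and their median score was 2.41, against 3.10 in exons from 400 nt to under 1000 nt. The short-exon HGF peaks had much the same traits, with a median percentile of 93.2 and a median score of 2.38, against 3.53 in exons from 400 nt to under 1000 nt. The part of depth in these peaks was not tested.

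Sites shared by both agents coincided closely. The median distance between the 2 positions was 10 nt, 72.8% lay within 20 nt and 94.3% within 50 nt, and 98.0% carried the same segment label. Scores of the same site were related but not equal, with Spearman's rho of 0.528 across 3821 sites, which are not independent replicates. Scores were therefore compared as ranks among the shared sites of each agent. The rank was 25 points or more higher after IFNg at 670 sites (17.5%) and lower at 678 (17.7%). In the 3′ UTR 163 of 777 sites were higher and 120 lower (21.0% and 15.4%). Around the stop codon it was 193 and 230 of 1210 (16.0% and 19.0%). In coding sequence it was 286 and 295 of 1661 (17.2% and 17.8%). The score rank difference had a rho of 0.123 with the difference in expression percentile and 0.185 with GC content.

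The widest gaps in score rank toward IFNg began with EIF2C2 (Argonaute 2, the slicer of RNA interference). Its site around the stop codon scored 5.63 after IFNg (at 2648 nt) and 2.12 after HGF (at 2600 nt). HGF had another EIF2C2 peak in the same exon, at 2837 nt in the 3′ UTR, with a score of 5.44. NCAPG2, a condensin subunit (4.79 and 2.06, in a coding exon of 189 nt), and the receptor EGFR (5.30 and 2.35, positions 3943 and 3846 nt) followed. NFE2L3, SH3TC1, FRAT2, PVR, WDSUB1, PHF15 and TBC1D13 completed the 10. The widest gaps toward HGF were at UBE3A, the ubiquitin ligase of Angelman syndrome (2.05 and 6.12), PCYOX1 (2.05 and 6.06), the deubiquitinase ZRANB1 (2.13 and 6.01) and the cadherin CELSR2 (2.15 and 5.80). HR, CARD6, PIGW, DPH5, BACE2 and NCOA7 followed. WDSUB1 lay at the floor of expression after IFNg, at 18.4, against 58.6, so its rank rests on a poorly covered transcript there.

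Within the gene lists, shared sites of the core IFNg list had higher score ranks after IFNg at 5 of 9 and lower at 0, beside the backgrounds of 17.5% and 17.7%. ICAM1, the adhesion receptor, led with 5.33 against 3.42 in the 3′ UTR, and NLRC5, CISH, SOCS3 and SECTM1 were the other 4. Among ERK-induced transcription factors 8 of 25 were higher and 2 lower. BHLHE40 (4.83 and 3.61), KLF10 (4.02 and 3.17), IER5 (4.55 and 4.00) and JUNB (4.36 and 3.94) gained, while NR4A2 (2.72 and 4.74) and KLF4 (2.45 and 4.45) lost, although both genes ranked higher in expression after IFNg. Around the stop codon of DUSP5 the site scored 6.28 after IFNg and 5.13 after HGF. In the m6A machinery 1 of 17 shared sites was higher, in YTHDF1 (3.91 and 3.59), and 3 lower, in FTO (2.29 and 4.37), EIF3A (3.34 and 5.73) and KIAA1429 (2.41 and 3.78).

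Sites of 1 agent alone with the highest scores often had a near neighbour. After IFNg alone, MBNL2, a splicing regulator, had the highest score, 6.51, in the 5′ UTR, with no HGF peak in the model. POGZ (5.94), EGFR at 4617 nt (5.81), SETD5 at 3321 nt (5.65), IP6K1 (5.16) and the transcription factor USF1 (5.09) were next, then ARID1B, POLR3B, TRIO and HK2. After HGF alone the highest were EGFR at 4513 nt (6.51), BAG4 (6.46), SEC62 (6.46), the corepressor CTBP2 (6.43) and TRIO at 9293 nt (6.34), then LUM, RNF111, LGR4, RRP1 and CHML. The EGFR pair lay 104 nt apart and the TRIO pair 118 nt apart, just past the joining distance. Of these 20 sites, those without any peak of the other agent in the model were MBNL2, BAG4 and RNF111. EGFR ranked at 98.0 after IFNg and 97.8 after HGF.

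To read the sequence under the peaks, gene models were matched to GENCODE 29 transcripts by chromosome, strand, symbol, span and the deposited exon numbers and lengths. This mapped 506 of 5918 gene models with a peak (8.55%), with 969 sites, so the sequences describe a small part. GGACT was counted, on the transcript strand, in windows of 201 nt centred on the listed position. Such windows held it at 42.6% of 352 shared sites (37.4 to 48.0), 36.5% of 126 IFNg-alone sites (28.1 to 45.6) and 37.2% of 476 HGF-alone sites (32.8 to 41.7). Of all 10745 windows tiled over the same transcripts, 18.0% held it. The shorter GGAC, which every GGACT contains, was in 83.2% of shared sites (78.9 to 87.0) and 66.7% of IFNg-alone sites (57.7 to 74.8), intervals that do not overlap. It was in 75.4% of HGF-alone sites (71.3 to 79.2) and in 52.3% of all windows.

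By distance, the motif was densest at the listed position. In windows of 50 nt centred there, 13.9% of shared, 12.8% of IFNg-alone and 11.4% of HGF-alone sites held GGACT, and 400 nt upstream 2.90%, 4.59% and 5.46% did. For GGACT in these 50-nt windows, the 3 kinds of site had overlapping intervals at the centre. In IFNg-alone sites of coding exons under 200 nt, GGAC was in 7 of 16 windows (43.8%, 19.8 to 70.1), and in HGF-alone sites of such exons in 15 of 17 (88.2%, 63.6 to 98.5). The longer GGACT was in 5 of 16 (31.2%) and 5 of 17 (29.4%) of the same windows, nearly equal shares, and all these counts are small.

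**Figure D5:**
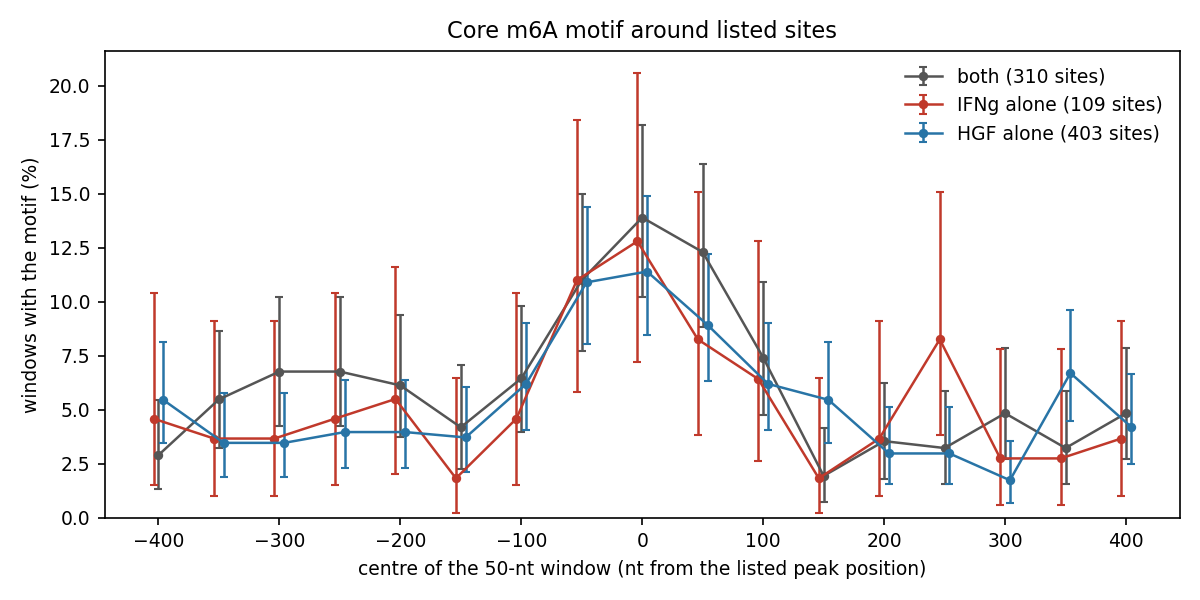
Share of 50-nt windows that hold the 5-base motif counted in the text, by distance of the window from the listed position, for shared (grey, 310 sites), IFNg-alone (red, 109) and HGF-alone (blue, 403) sites with enough transcript on both sides; whiskers are 95% exact intervals. All 3 curves peak at the listed position, at 13.9%, 12.8% and 11.4%.

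Sequences are shown for the 3 highest-scoring mapped sites of each kind whose surroundings lie within 1 coding exon, in gene models of equal high rank, so that the motif can be seen at shared and unshared sites. Each is 101 bases centred on the listed position, 5′ to 3′ on the gene's strand, from GENCODE 29 (GRCh38), with GGAC in capitals. The shared sites lay in MLL3, a histone methyltransferase (chr7:152148601-152148701, minus strand, scores 3.29 after IFNg and 6.48 after HGF), the helicase-like DHX32 (chr10:125859804-125859904, minus strand, 6.37 and 5.74) and SH3D19 (chr4:151175073-151175173, minus strand, 4.04 and 6.02).
MLL3, shared: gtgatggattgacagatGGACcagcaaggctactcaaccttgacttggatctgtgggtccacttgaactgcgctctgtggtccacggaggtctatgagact
DHX32, shared: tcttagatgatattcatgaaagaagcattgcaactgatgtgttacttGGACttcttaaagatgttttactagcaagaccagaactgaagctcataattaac
SH3D19, shared: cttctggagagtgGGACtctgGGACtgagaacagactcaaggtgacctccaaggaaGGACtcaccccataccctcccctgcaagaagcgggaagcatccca
All 3 shared windows hold GGAC, and the SH3D19 window holds 3 copies. The IFNg-alone sites lay in SETD5, a chromatin protein (chr3:9470570-9470670, plus strand, score 5.65), BAHD1 (chr15:40459404-40459504, plus strand, 3.90) and the cadherin CELSR1 (chr22:46535667-46535767, minus strand, 3.66).
SETD5, IFNg: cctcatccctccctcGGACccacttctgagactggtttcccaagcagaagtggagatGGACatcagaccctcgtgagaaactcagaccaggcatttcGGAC
BAHD1, IFNg: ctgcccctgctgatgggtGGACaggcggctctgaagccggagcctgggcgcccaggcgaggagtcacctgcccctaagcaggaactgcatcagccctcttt
CELSR1, IFNg: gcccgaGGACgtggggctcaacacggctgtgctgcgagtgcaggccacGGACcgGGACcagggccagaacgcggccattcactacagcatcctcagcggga
The HGF-alone sites lay in the same exon of SETD5, 122 nt further along (chr3:9470692-9470792, plus strand, 5.61), in ZMYM4 (chr1:35359241-35359341, plus strand, 5.24) and in MGA, a MAX-binding repressor (chr15:41766619-41766719, plus strand, 4.87).
SETD5, HGF: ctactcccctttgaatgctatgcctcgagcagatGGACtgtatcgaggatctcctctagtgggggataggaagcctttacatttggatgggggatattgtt
ZMYM4, HGF: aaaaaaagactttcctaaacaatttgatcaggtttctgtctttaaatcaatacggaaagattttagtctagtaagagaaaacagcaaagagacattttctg
MGA, HGF: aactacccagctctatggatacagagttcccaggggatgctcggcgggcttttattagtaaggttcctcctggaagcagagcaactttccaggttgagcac
The ZMYM4 and MGA windows hold no GGAC within these letters, and the SETD5 windows of the 2 agents hold 3 copies and 1 copy, respectively.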

How the data were processed

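The measurements came from m6A IP and input libraries, sequenced on the Genome Analyzer IIx per the labels' protocols. The authors deposited 1 table of gene models. Per the file headers it holds for each treatment an expression quantile, a fraction from 0 to 1 that is a rank, and lists of m6A peaks with position, exon number, exon length, segment and score. The sources used here do not name the aligner, the peak caller, any pooling or the genome build.

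The deposited fraction was multiplied by 100 to a percentile. Gene models at percentile 60 or more after either agent were compared, with a line of 10 points. No test was run. Peaks within 100 nt were matched, and score ranks were compared with a line of 25 points. GC content came from GENCODE 29, with 90.1% of the compared gene models matched through symbols and RefSeq synonyms, and was corrected in 40 bins. For a gene with several models, the 1 with the highest mean percentile was taken. Members, lists and rules were chosen with earlier results of these data known. For each of 21 lists, up to 5 genes per direction past 10 points were named, with the 10 highest and 10 lowest gene models with a recognised symbol, the 10 widest score rank gaps in each direction, the 10 highest-scoring sites of each agent alone, the m6A machinery and the 5 gene models with most peaks after each agent. Some genes that these rules name are not reported here. Other genes named, and the promoters, were chosen after their values were seen. The calculations were tested on simulated data. The software was SciPy 1.17.1, matplotlib 3.10.9 and NumPy 2.4.6, with pandas 2.3.3 under Python 3.11.15.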

Additional observations from a re-analysis of the deposited data

How the results depend on the processing

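With 1 library per group no replicate could be left out and no result has a test. No paired analysis was possible because each group held 1 library. Over 74 alternatives to 16 results, 29 stayed within the limit set for the value and 45 moved past it.

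Gene models higher and lower after IFNg numbered 886 and 811, and became 2011 and 2143 at 5 points, 309 and 185 at 20 points, 490 and 319 at a 2-fold difference of the rank counted from the top, 3327 and 3299 with no filter, and 439 and 325 with a filter at percentile 75. With a GC correction 492 were lower. The core IFNg list kept a median between 15.1 and 25.8 points and the ERK-induced list between 3.77 and 5.28.

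The matched share of IFNg and HGF peaks was 68.5% and 39.8% within 50 nt, 75.6% and 44.2% within 200 nt, 76.1% and 36.6% at a score of 3 or more, 55.8% and 55.7% with equal numbers of peaks, and 64.6% and 46.1% at percentile 90 or more in both. Sites of IFNg alone and HGF alone numbered 378 and 1589 at a score of 3 or more, 1672 and 888 with equal numbers of peaks, and 450 and 968 at percentile 90 or more. Equal numbers meant cutting the longer HGF list to its highest scores, and the part of that cut in the reversal was not tested. The surplus of HGF-alone sites thus changed direction under that setting.

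At a score of 3 or more, the transcript start held 0.806% of IFNg and 2.32% of HGF peaks, coding sequence 43.9% and 42.6%, and the region around the stop codon 32.0% and 32.7%. With equal numbers of peaks the HGF shares were 2.16%, 42.4% and 33.0%, and in gene models with a peak after both 2.22%, 48.3% and 26.4%. Sites with a higher and lower score rank after IFNg numbered 1070 and 1036 at 15 points, 283 and 326 at 40 points, and 388 and 383 at percentile 75 or more in both. Depth is unknown and limits every count of peaks.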
